A study of Mus musculus with 12 samples.

Results

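Blood and lymph vessel genes were followed in RNA-seq data of P815 tumors. In the P815-IFNG tumors blue light could switch on the cytokine genes Ifng and Cxcl10, and the P815-M tumors lacked this switch. The set was a list of 36 named genes among the 32288 rows of the count tables, chosen by gene name with earlier results of these data known. It held 23 genes of endothelial identity, 5 genes of tip cells and sprouting, 5 adhesion molecules of activated endothelium and 3 genes of mural cells. All 36 genes passed the filter on low counts.

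A blood vessel is a tube of endothelial cells held together by junction proteins such as the cadherin encoded by Cdh5 and the adhesion molecule encoded by Pecam1, and wrapped by mural cells, the pericytes and smooth muscle cells. New vessels sprout when vascular endothelial growth factor binds its receptor Kdr, a tip cell leads the sprout under the control of the Notch ligand Dll4, and angiopoietins acting on the receptor Tek loosen or settle the vessel wall. In inflamed tissue, cytokines including IFNG act on the endothelium, which then displays molecules such as Icam1, Vcam1 and the selectins that let leukocytes attach and leave the blood. In a transplanted tumor the vessels come from the host, while other cells of the tumor can express some of the same genes, and which cells gave the reads of each member was not tested.

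P815 is a mouse mastocytoma line that grows in the DBA/2 strain. The P815-IFNG cells were 1 single-cell clone that carried, under the EF-1α promoter, the light-sensing transcription activator GAVPO, a cassette under 5×UAS with Ifng, Cxcl10 and the secreted luciferase hGluc, and the reporter mRuby-Fluc. The P815-M cells were 1 single-cell clone with mRuby-Fluc only, expressed from the EF-1α promoter. Young adult DBA/2 mice, which have an intact immune system, received the cells under the skin of the back and bore a single tumor, and the light groups were kept under blue light for 12 h a day over 6 days while the dark groups received none. Each of the 4 groups, P815-IFNG light, P815-IFNG dark, P815-M light and P815-M dark, held 3 mice, and 1 library was made from the tumor of each.

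The libraries did not have the same total of counts, called depth here. The number of reads sequenced per library was not examined. In 10 libraries the total lay between 2211234 and 2946792 counts, and it was 41473500 counts in P815-IFNG light 3 and 42338096 counts in P815-IFNG dark 3, named the deep pair here. Levels are given as CPM, counts per 1000000 counts of the library after scaling by TMM, a normalization that holds the level of most genes equal. A count of 3, taken as the floor of detection, was worth between 0.931 and 1.56 CPM in the 10 libraries and 0.0694 and 0.0670 CPM in the deep pair. Floors and intervals cover counting error only. The same strand-keeping kit and the same counting defaults are given for all libraries, yet mt-Nd6, which lies opposite the other mitochondrial protein genes, took 3.56% and 3.85% of all counts of these genes in the deep pair against 29.0% to 47.9% in the other 10. Whether the 2 kinds of library were counted on the same strand, and which of them counted the reads of the gene itself, was not tested. The totals of counts, the meaning of every member's level, and each comparison across the 2 kinds carry this doubt. Below, 3 values of a group are in the order of replicates 1, 2 and 3, and the third value of each P815-IFNG group is the deep library.

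Promoter sequences were found for 21 of the 36 genes in the RefSeq tables of GRCm38.p6, as the 250 bases before the annotated start. They are shown for Kdr, Tie1 and Rgs5, which had the smallest p of their class in a test of light, and for the adhesion genes Icam1 and Sele, the members that held a GAS motif. They lie at chr5:75978456-75978705 on the minus strand for Kdr, chr4:118489850-118490099 on the minus strand for Tie1, chr1:169655251-169655500 on the plus strand for Rgs5, chr9:21015690-21015939 on the plus strand for Icam1 and chr1:164047984-164048233 on the plus strand for Sele. Each is written 5′ to 3′ on the strand of its gene, and capitals mark a motif.
Kdr: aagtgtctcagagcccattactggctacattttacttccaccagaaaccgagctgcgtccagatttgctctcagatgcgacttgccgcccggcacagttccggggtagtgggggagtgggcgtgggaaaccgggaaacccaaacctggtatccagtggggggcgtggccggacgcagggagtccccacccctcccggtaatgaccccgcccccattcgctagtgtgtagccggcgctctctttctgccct
Tie1: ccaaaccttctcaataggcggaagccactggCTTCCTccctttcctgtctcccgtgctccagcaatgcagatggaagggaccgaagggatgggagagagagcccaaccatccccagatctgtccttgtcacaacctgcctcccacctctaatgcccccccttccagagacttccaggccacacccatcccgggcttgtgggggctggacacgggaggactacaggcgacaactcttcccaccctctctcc
Rgs5: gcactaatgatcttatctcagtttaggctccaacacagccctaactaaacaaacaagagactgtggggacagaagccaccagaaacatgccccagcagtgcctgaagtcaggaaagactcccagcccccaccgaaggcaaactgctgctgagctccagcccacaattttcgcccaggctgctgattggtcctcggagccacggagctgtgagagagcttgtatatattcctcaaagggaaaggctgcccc
Icam1: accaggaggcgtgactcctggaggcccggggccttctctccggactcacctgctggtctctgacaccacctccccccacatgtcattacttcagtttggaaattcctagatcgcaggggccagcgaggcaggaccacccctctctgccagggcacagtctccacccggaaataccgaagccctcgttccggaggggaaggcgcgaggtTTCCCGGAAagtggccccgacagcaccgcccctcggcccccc
Sele: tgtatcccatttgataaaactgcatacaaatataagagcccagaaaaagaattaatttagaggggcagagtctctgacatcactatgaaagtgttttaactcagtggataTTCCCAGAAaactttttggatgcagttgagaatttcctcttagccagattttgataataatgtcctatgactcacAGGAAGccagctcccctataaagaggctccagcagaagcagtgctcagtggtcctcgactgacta

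The motifs were searched on both strands. The GAS motif, TTCNNNGAA, is a letter pattern known from promoters of genes that respond to IFNG. The 21 genes had 26 promoters, since some had several starts. GAS was in 2 of the 26, those of Icam1 and Sele, and in 7.02% of 32851 promoters of the same length. The ETS motif, AGGAAG, a core bound by factors of the family that includes Erg, was in 11 of the 26 promoters, which belong to 10 genes with Tie1 and Sele among those shown, against 29.5% of all promoters. No match was found in the 26 promoters for the ISRE core, which is GAAA, 2 free bases and GAAA, or for the NF-kappaB pattern of GGG, 2 free bases, TT, 1 free base and CC, and these were in 2.98% and 4.11% of all promoters. A letter match is a description of the window and not a bound site. No match does not mean that a window lacks such a site, since other spellings of these motifs were not searched.

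The levels of the 36 genes spanned a wide range. Per kb of exon, the highest mean in the deep pair was that of Erg, an ETS transcription factor of endothelium, at 28.4 CPM per kb, followed by Egfl7, a secreted vessel protein, at 17.3, Lyve1, a hyaluronan receptor of lymphatic endothelium and some macrophages, at 16.3, and Icam1 at 10.6. Pecam1 was at 4.26 CPM per kb, Plvap at 3.19, Rgs5 at 1.88, Cdh5 at 0.549 and Kdr at 0.179, and the lowest was Prox1, the lymphatic transcription factor, at 0.0137 CPM per kb. So the defining receptors and junction genes of endothelium were present, at levels per kb far under those of Erg, Egfl7 and Lyve1.

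Some members were steady over the tumors and others were not. Over the 10 libraries of lower depth, 5 members ranged by less than 3-fold between their lowest and highest CPM, namely Erg (1.77-fold), Eng (1.84-fold), Nos3 (2.06-fold), Cspg4 (2.40-fold) and Icam1 (2.94-fold). Another 16 members ranged by 3.53-fold to 26.8-fold, and 15 were at 0 counts in at least 1 of these libraries. The steady set held neither Cdh5 nor Kdr nor Tie1, the genes that define endothelium here beside Pecam1.

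**Figure D1:**
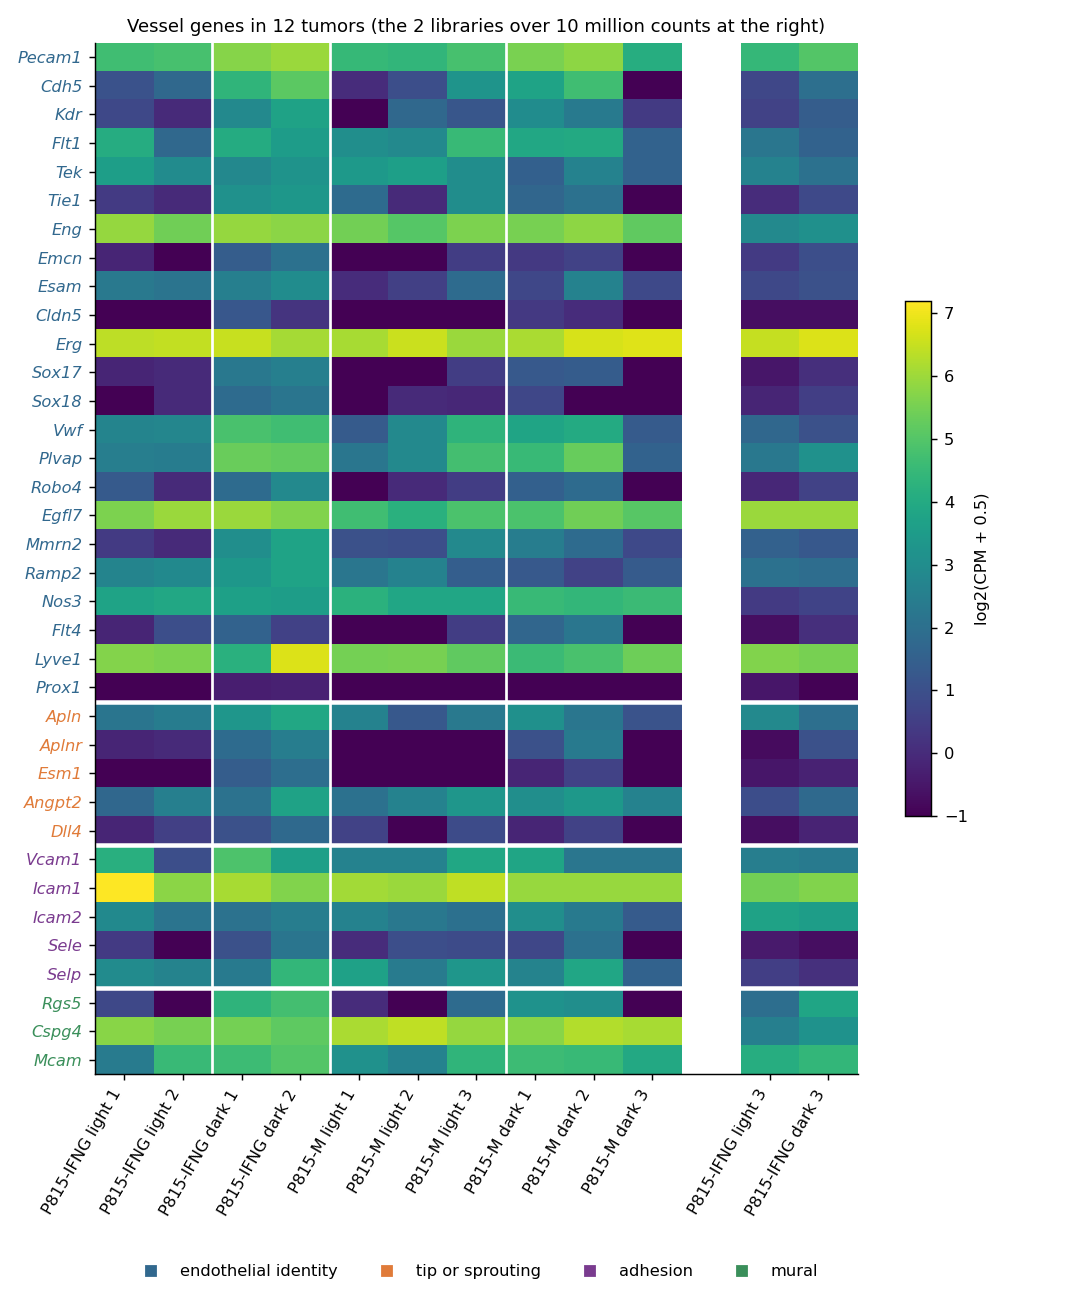
Levels of the 36 vessel genes (rows, log2 of CPM plus 0.5, names coloured by class) in the 12 libraries (columns, grouped by tumor line and light, the deep pair at the right). Erg, Icam1, Pecam1 and Lyve1 were high in every column, while Vwf and Rgs5 were brightest in P815-IFNG dark 1 and 2.

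Among the genes of endothelial identity, Pecam1 was the junction gene measured best. Its level was 25.3, 27.8 and 21.6 CPM in light and 51.8, 62.0 and 31.4 in dark in P815-IFNG tumors, and 21.8, 20.6 and 27.7 in light and 46.1, 55.7 and 16.9 in dark in P815-M tumors. The P815-IFNG light libraries all lay below the P815-IFNG dark ones, while in P815-M tumors dark replicate 3 was below all light libraries. The cadherin gene Cdh5 was at 1.61, 2.93 and 1.18 CPM in P815-IFNG light and 20.2, 34.2 and 3.44 in P815-IFNG dark, and at 0.519, 1.44 and 8.94 in P815-M light against 12.9, 25.0 and 0 in P815-M dark. For Cdh5 the P815-IFNG groups did not overlap and the P815-M groups did, the dark library at 0 having counted no Cdh5 read.

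The receptors of the vascular growth factors followed no single pattern. Kdr, the main receptor of VEGF signalling in blood endothelium, was at 1.21, 0.488 and 1.04 CPM in P815-IFNG light and 6.83, 12.7 and 2.19 in P815-IFNG dark, and at 0, 2.87 and 1.79 in P815-M light against 7.42, 4.69 and 0.823 in P815-M dark. Tie1, a receptor that works with Tek, was at 0.804, 0.488 and 0.532 CPM in light and 8.38, 9.72 and 1.25 in dark in P815-IFNG tumors, and 3.11, 0.479 and 7.60 in light and 2.73, 3.65 and 0 in dark in P815-M tumors. Both had separate light and dark groups in P815-IFNG tumors and overlapping ones in P815-M tumors. Flt1, a second VEGF receptor that also acts as a decoy, ranged from 2.93 to 16.5 CPM in P815-IFNG light and from 2.50 to 16.1 in P815-IFNG dark. Tek, the angiopoietin receptor, was at 11.7, 7.32 and 5.69 CPM in P815-IFNG light and 6.52, 8.71 and 3.64 in P815-IFNG dark, and at 10.4, 12.0 and 7.60 in P815-M light against 2.34, 5.73 and 2.47 in P815-M dark. Flt1 and Tek overlapped between light and dark in P815-IFNG tumors, and Tek was higher in all P815-M light libraries than in all P815-M dark ones. Flt4, the receptor of lymphatic growth factors, was at 4.17 CPM or less in every library and at 0 in P815-M light 1 and 2 and in P815-M dark 3.

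Plvap, which forms the diaphragms of fenestrated and leaky vessels, was at 5.23, 4.88 and 4.40 CPM in P815-IFNG light and 39.1, 37.2 and 8.26 in P815-IFNG dark, and at 4.15, 6.70 and 26.4 in P815-M light against 22.2, 38.5 and 2.47 in P815-M dark. Vwf, the clotting factor stored in endothelial granules, was at 6.03, 6.34 and 2.85 CPM in P815-IFNG light and 28.2, 25.1 and 1.56 in P815-IFNG dark, so its deep pair ran against the other 4 libraries. The transcription factors Sox17 and Sox18 reached 5.36 and 4.02 CPM in P815-IFNG dark and no more than 0.488 CPM each in P815-IFNG light. Of these 4 genes, all but Vwf kept every P815-IFNG light library under every P815-IFNG dark library.

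Further identity genes had at most 39 counts in any of the libraries of lower depth. The sialomucin gene Emcn was at 0.402, 0 and 0.81 CPM in P815-IFNG light and 2.17, 3.69 and 1.45 in P815-IFNG dark, which did not overlap. The guidance receptor Robo4 was at 2.01, 0.488 and 0.44 CPM in P815-IFNG light and 3.10, 6.70 and 1.03 in P815-IFNG dark, and the matrix gene Mmrn2 at 0.804, 0.488 and 2.41 against 7.76, 13.1 and 1.88, and both overlapped through a deep library. Esam, a junction adhesion gene, ranged from 1.23 to 4.42 CPM in P815-IFNG light and from 1.54 to 7.37 in P815-IFNG dark. Cldn5, the claudin of tight junctions, reached 1.86 CPM in P815-IFNG dark 1 and was at 0 in 6 of the 12 libraries, and Prox1 did not exceed 0.335 CPM in any library.

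A last group of identity genes overlapped between light and dark in P815-IFNG tumors. Erg was at 86.3 ± 3.43 CPM (mean ± SD, n = 3) in light and 88.4 ± 20.4 in dark in P815-IFNG tumors, and 74.9 ± 16.4 in light and 94.6 ± 21.3 in dark in P815-M tumors. Egfl7 was at 57.3 ± 8.89 CPM in P815-IFNG light and 57.7 ± 6.99 in P815-IFNG dark, and at 24.1 ± 5.80 in P815-M light against 34.8 ± 6.78 in P815-M dark. The P815-IFNG tumors, of both light conditions, thus lay above all P815-M tumors in Egfl7, whose highest P815-M value was 42.2 CPM against a lowest P815-IFNG value of 47.1 CPM. Lyve1 ranged from 18.0 to 108 CPM within P815-IFNG dark alone. Eng, a TGF-beta co-receptor, was between 32.1 and 59.1 CPM in the 10 libraries and at 6.76 and 8.19 CPM in the deep pair. Nos3, the endothelial nitric oxide synthase, was between 11.4 and 23.5 CPM in the 10 and at 0.81 and 1.07 in the deep pair. Ramp2, the partner of the adrenomedullin receptor, was at 5.50 ± 1.66 CPM in light and 8.68 ± 4.93 in dark in P815-IFNG tumors, and 4.04 ± 1.76 in light and 1.68 ± 0.558 in dark in P815-M tumors.

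Of the tip and sprouting genes, Angpt2, the angiopoietin released by activated endothelium, was at 2.82, 5.37 and 1.41 CPM in light and 3.72, 12.7 and 2.95 in dark in P815-IFNG tumors, and 3.63, 5.75 and 9.39 in light and 7.81, 9.90 and 5.76 in dark in P815-M tumors. Its groups overlapped in both lines. Aplnr, the apelin receptor of sprouting and venous endothelium, was at 0.402, 0.488 and 0.0926 CPM in P815-IFNG light and 3.10, 5.03 and 1.56 in P815-IFNG dark, and at 0 in all 3 P815-M light libraries and 1.56, 4.69 and 0 in P815-M dark. Esm1, a secreted proteoglycan of tip cells, was at 0, 0 and 0.208 CPM in P815-IFNG light and 2.17, 3.35 and 0.357 in P815-IFNG dark. In P815-IFNG tumors both Aplnr and Esm1 were lower in every light library than in every dark library, at levels of a few reads in the libraries of lower depth. The ligand gene Apln ranged from 4.02 to 6.74 CPM in P815-IFNG light and from 3.44 to 14.4 in P815-IFNG dark. Dll4 was at 3.02 CPM or less in every library.

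Among the adhesion genes, Icam1, the ligand of leukocyte integrins, was the most abundant at 146, 54.7 and 43.4 CPM in light and 68.6, 49.6 and 49.0 in dark in P815-IFNG tumors, and 66.4, 62.2 and 84.5 in light and 60.5, 60.4 and 60.1 in dark in P815-M tumors. P815-IFNG light 1 stood above the other 11 libraries, and the other 2 light libraries of that line lay within or under the dark range. Vcam1, the ligand of the integrin VLA-4, was at 17.7, 1.46 and 5.23 CPM in light and 29.2, 11.7 and 4.69 in dark in P815-IFNG tumors, and 5.71, 5.75 and 14.3 in light and 13.7, 4.17 and 4.12 in dark in P815-M tumors, with overlap in both lines. Icam2, an adhesion gene of resting endothelium, was at 12.6 and 11.4 CPM in the deep pair and between 2.06 and 7.81 CPM in the 10 libraries. The selectin gene Sele was at 4.02 CPM or less in every library, and Selp, stored in endothelial granules and platelets, ranged from 0.603 to 21.1 CPM within P815-IFNG dark.

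The mural genes differed from one another. Rgs5, a regulator of G protein signalling typical of pericytes, was at 1.21, 0 and 3.43 CPM in P815-IFNG light and 19.6, 26.1 and 13.7 in P815-IFNG dark, and at 0.519, 0 and 3.13 in P815-M light against 8.59, 7.81 and 0 in P815-M dark. The P815-IFNG groups did not overlap, and the P815-M groups overlapped only through dark replicate 3. Cspg4, the NG2 proteoglycan of pericytes and some other cells, was at 52.7, 45.4 and 5.32 CPM in light and 44.1, 35.5 and 8.53 in dark in P815-IFNG tumors, and 70.1, 85.2 and 59.0 in light and 53.1, 75.0 and 68.7 in dark in P815-M tumors. Its low values were those of the deep pair. Mcam, an adhesion gene of mural cells and endothelium, was at 4.83, 22.9 and 16.7 CPM in P815-IFNG light and 23.9, 31.8 and 21.0 in P815-IFNG dark, which overlapped.

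**Figure D2:**
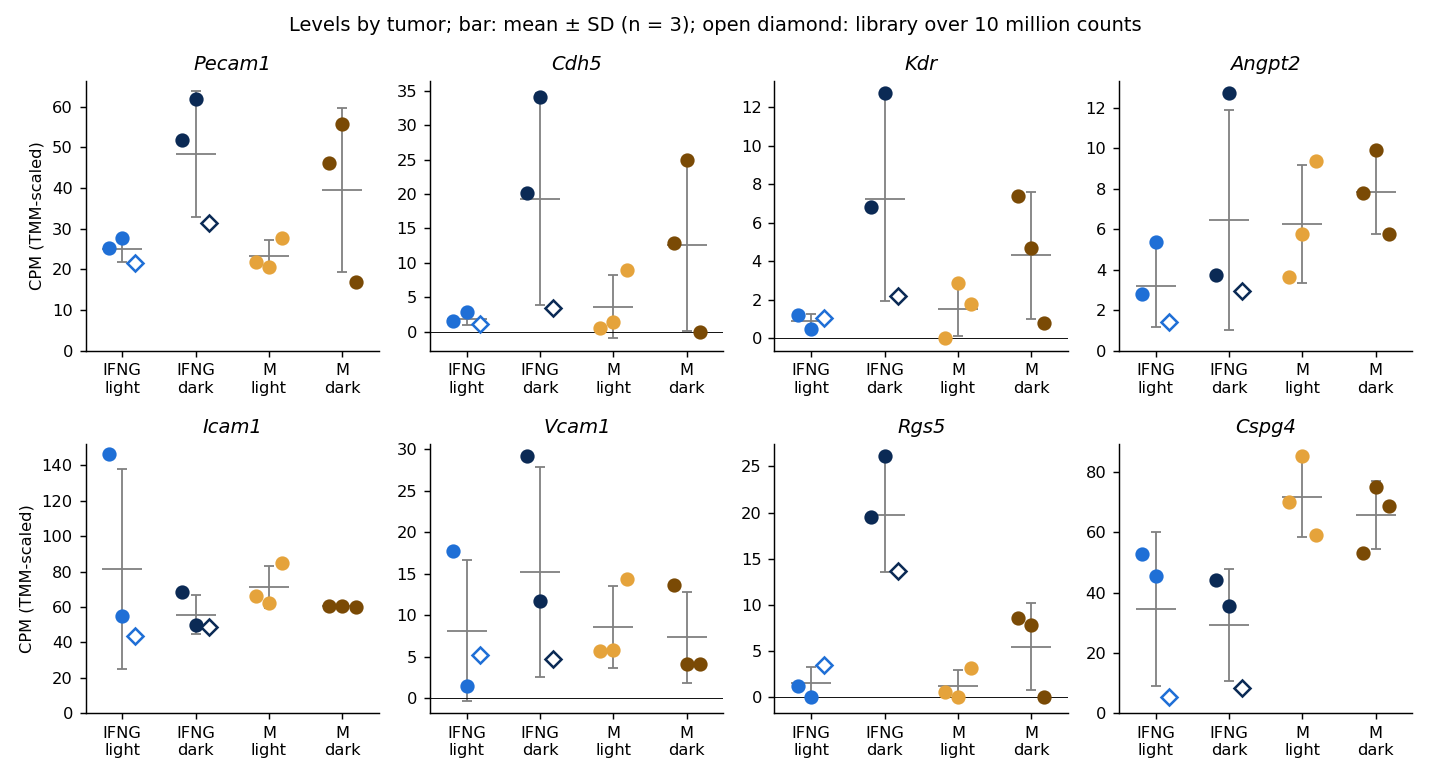
CPM of Pecam1, Cdh5, Kdr, Angpt2, Icam1, Vcam1, Rgs5 and Cspg4 by group, with 1 point per tumor, an open diamond for a deep library and a bar for the mean ± SD (n = 3). For Pecam1, Cdh5, Kdr and Rgs5 the P815-IFNG light points all sit under the P815-IFNG dark points, for Icam1 a single light tumor at 146 CPM stands above the rest, and for Cspg4 the deep libraries are lowest.

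The first comparison, light against dark in P815-IFNG tumors, asks how switching on the cytokines went with vessel genes. The log2 fold change was negative, lower in light, for 31 of the 36 members, with a median of -1.01 against -0.02 over all 18804 genes tested. By class, it was negative for 21 of 23 identity genes (median -1.27), 5 of 5 tip and sprouting genes (median -1.95), 3 of 5 adhesion genes (median -0.90) and 2 of 3 mural genes (median -0.78). No member passed the test, by edgeR's quasi-likelihood test (Benjamini-Hochberg) where a call needs an adjusted p no higher than 0.05 and a log2 fold change of 1 or more in size, and 0.0% of all genes did. DESeq2 also called 0 members, where it called 4 of all 18804 genes, each lower in light. In these bulk tumors, fewer cells of a type and less RNA per cell cannot be told apart.

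Counts at an unadjusted p were added after the data were seen, for members chosen with earlier results of these data known. At an unadjusted p under 0.05, 11 members were lower in light and 0 higher, where 1.42% of all genes were lower and 0.755% higher. They were Pecam1, Cdh5, Kdr, Tie1, Plvap, Mmrn2, Sox17 and Sox18 of the identity genes, Aplnr and Esm1 of the sprouting genes and Rgs5 of the mural genes, with log2 fold changes from -3.71 to -0.96 and standard errors from 0.41 to 1.41. In 11 members every light library lay under every dark library, against 2.75% of all genes, and in 0 members above, against 0.994%. The non-overlapping members were the same as those just named with Emcn in place of Mmrn2. No adhesion gene was in either set. The count of 11 rested on single tumors, and the count over all genes tested moved too. It was 1 without P815-IFNG dark 2, beside 170 of 18684 genes, and 4 without P815-IFNG light 3, beside 1081 of 18140. It was 5 without P815-IFNG light 1, beside 255 of 18699 genes, and 5 without P815-IFNG light 2, beside 250 of 18740. It was 6 without P815-IFNG dark 1, beside 150 of 18673 genes, and 14 without P815-IFNG dark 3, beside 547 of 18264.

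Where fold changes are given, they come from the fit over all 12 libraries. Kdr had a log2 fold change of -2.89 (SE 1.05), Rgs5 of -3.41 (SE 1.24), Esm1 of -3.71 (SE 1.39) and Sele of -2.37 (SE 1.50), the members with the smallest p of their class, each with an adjusted p of 1 by edgeR's quasi-likelihood test (Benjamini-Hochberg). Cdh5 was at -3.42 (SE 1.38), Tie1 at -3.39 (SE 1.24), Plvap at -2.54 (SE 0.94), Aplnr at -3.68 (SE 1.41) and Pecam1 at -0.96 (SE 0.41). Icam1 had a log2 fold change of 0.54 (SE 0.41), which was -0.21 without P815-IFNG light 1. The standard errors of the strongest differences were over 1 on the log2 scale.

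**Figure D3:**
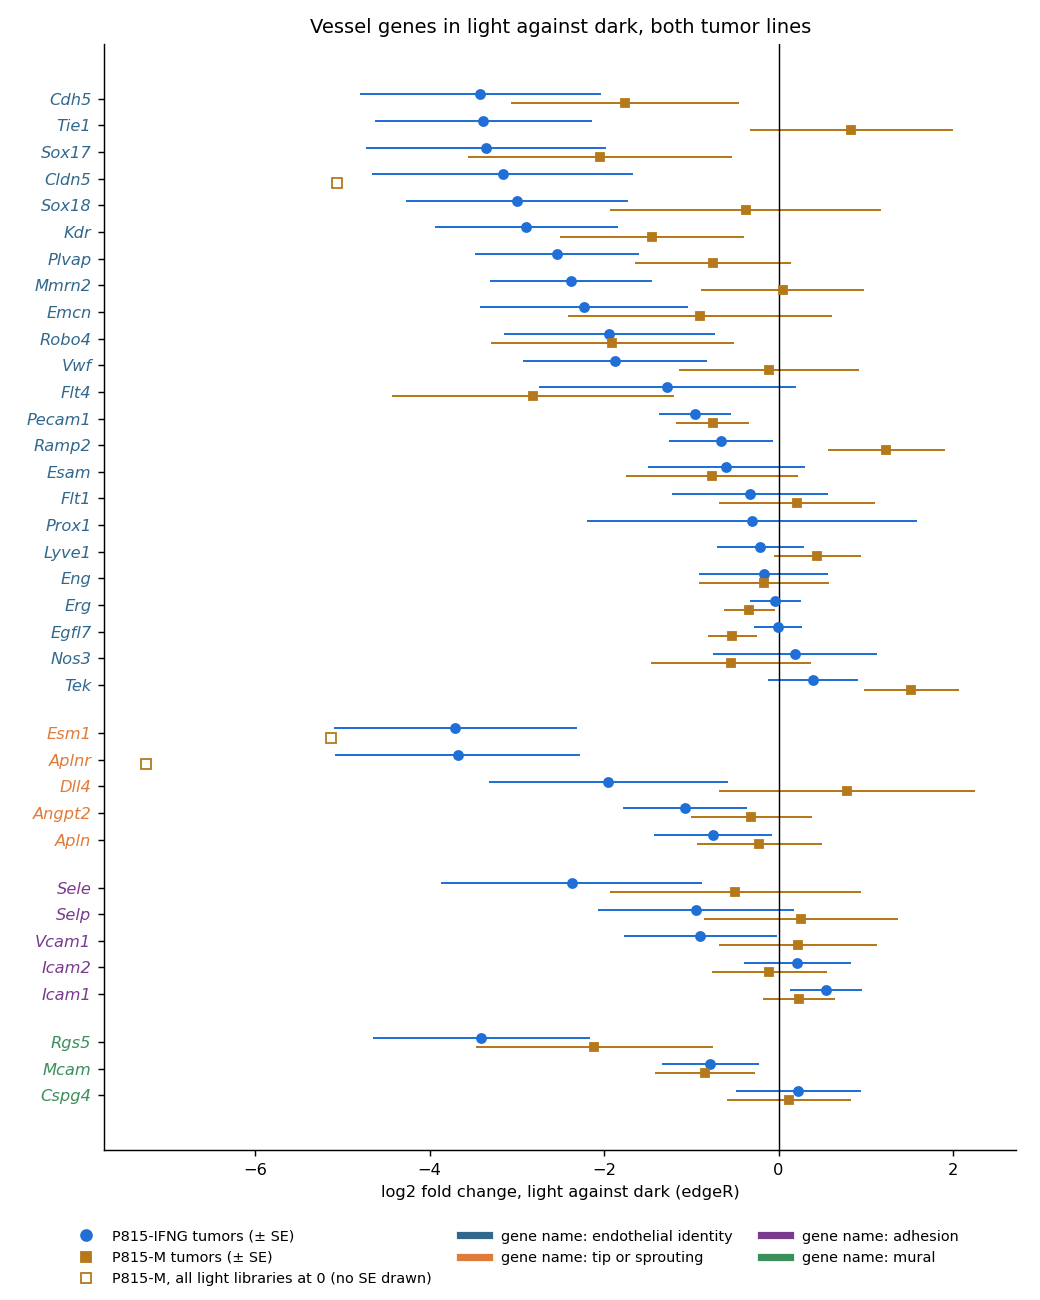
Log2 fold change of light against dark (points, with bars of 1 SE) for the 36 members by class, circles for P815-IFNG tumors and squares for P815-M tumors, open squares where all P815-M light libraries were at 0 and Prox1 not drawn for P815-M. Most circles lie left of 0, with Esm1, Aplnr, Cdh5, Rgs5 and Tie1 among those beyond -3, while Icam1 is right of 0.

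The deep pair gave a comparison of 1 library with 1, with no replicate check. By exact Poisson intervals at 95%, the light interval lay under the dark interval for 15 members, where it did for 29.3% of all genes, above it for 5 (Flt1, Tek, Vwf, Lyve1 and Apln), where it did for 21.6%, and overlapped it for 16. Rgs5 was at 3.43 CPM (2.90 to 4.02) in light and 13.7 (12.6 to 14.8) in dark, Cdh5 at 1.18 (0.879 to 1.55) and 3.44 (2.92 to 4.03), and Aplnr at 0.0926 (0.0252 to 0.237) and 1.56 (1.22 to 1.97), from 4 and 70 counts. In the other 4 P815-IFNG tumors, both light libraries were under both dark libraries for 22 of 36 members, where 21.0% of all genes were, and above for 2 members, Nos3 and Cspg4, where 18.2% of all genes were. In 10 members the 4 tumors and the intervals of the deep pair were both lower in light, as in 7.89% of all genes.

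When the deep pair was treated as a batch and the counts adjusted by ComBat-seq, which the study also used with batches it does not name, 4 members were called lower in light in P815-IFNG tumors, beside 0.841% of all genes called in either direction. They were Rgs5 (log2 fold change -2.97, adjusted p = 5.83e-04), Cdh5 (-2.15, adjusted p = 0.0147), Plvap (-1.53, adjusted p = 0.0239) and Aplnr (-3.66, adjusted p = 0.0394), by edgeR's quasi-likelihood test (Benjamini-Hochberg). ComBat-seq was given the group labels, and the fit to its adjusted counts had no batch term. Its adjusted p values, here and below, may therefore be too small. No member was called in this comparison when the depth class was a batch term, when only the 10 libraries were fitted, or with DESeq2. Few genes were called at all in these fits. They were 1 higher and 1 lower of 18804 with the batch term, 1 lower of 16944 in the 10 libraries and 4 lower of 18804 with DESeq2.

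Markers of other cell types were measured beside the vessel genes in this comparison, and no gene of their lists was called. The summed CPM of Pecam1, Cdh5, Kdr and Tie1 was 29.0, 31.7 and 24.4 in P815-IFNG light and 87.2, 119 and 38.3 in P815-IFNG dark, and without Pecam1 it was 3.62, 3.90 and 2.75 against 35.4, 56.6 and 6.88. The skeletal muscle list had 5 of 8 genes lower at an unadjusted p under 0.05 and a median log2 fold change of -4.15. It summed to between 125 and 141 CPM in P815-IFNG light and between 146 and 416 in P815-IFNG dark. Ckm and Ttn, its highest genes by level, overlapped between light and dark. For 5 of the 8 genes, Acta1, Myh4, Tnnt3, Mylpf and Tnni2, every light library lay under every dark library. The adipocyte list, led by Car3 and Fabp4, had a median of -1.23 with 0 of 6 genes at that p, and summed to 27.8, 9.76 and 137 CPM in light and 196, 262 and 22.7 in dark. The fibroblast list, led by Col3a1 and Col1a1, had 1 of 8 genes lower, a median of -0.66 and sums from 3886 to 6403 CPM in light and 4721 to 12814 in dark. P815-IFNG dark 2, the library without which the count fell to 1, held the highest fibroblast and adipocyte sums and the highest value of 22 members among the 10 libraries. The part of these stromal and tissue genes in the vessel result was not tested.

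**Figure D4:**
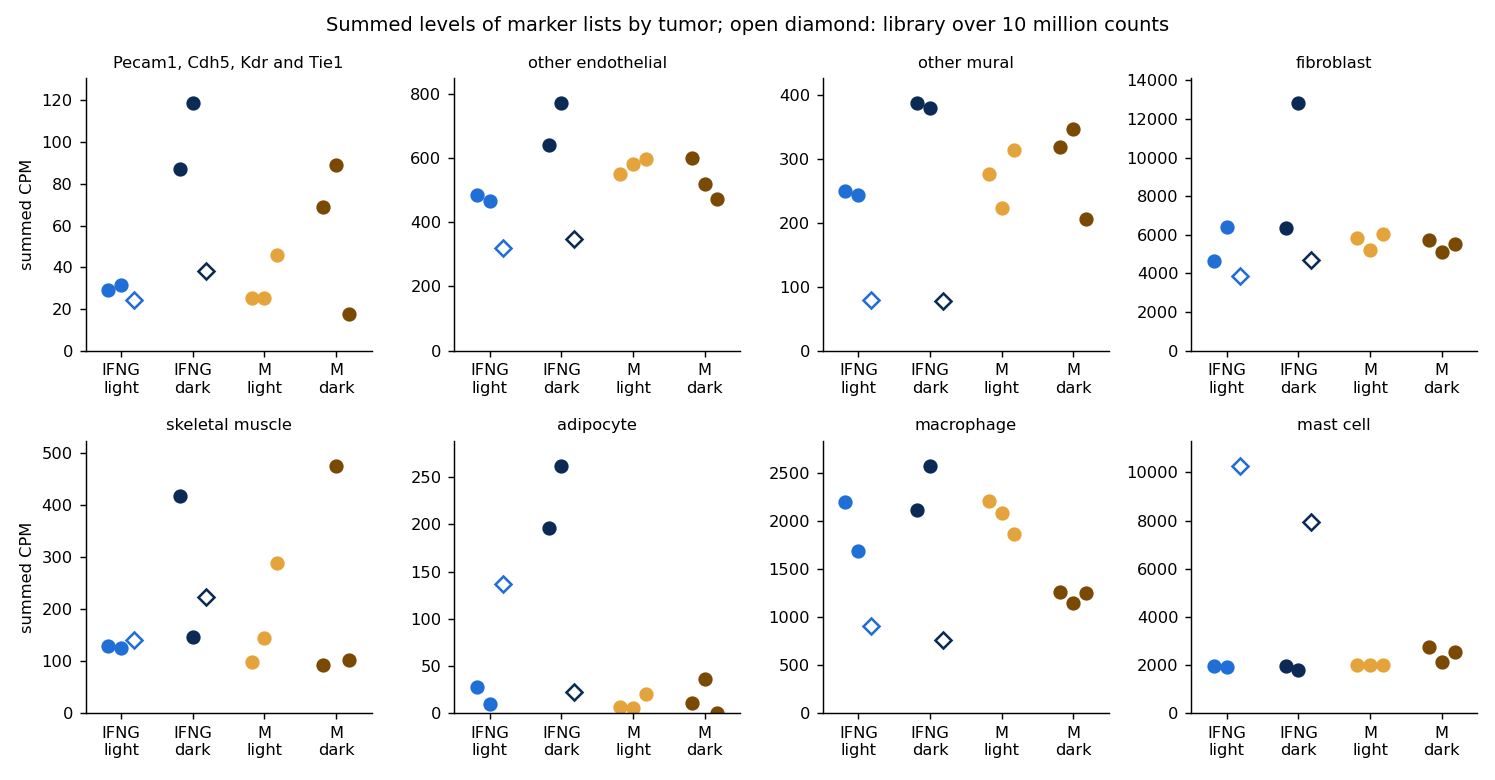
Summed CPM (linear axes from 0) of Pecam1, Cdh5, Kdr and Tie1 and of the lists for other endothelial, other mural, fibroblast, skeletal muscle, adipocyte, macrophage and mast cell genes, with 1 point per tumor by group. The sum of the 4 endothelial genes is highest in P815-IFNG dark 2, at 119 CPM, and the mast cell sums of the deep pair, 10268 and 7932 CPM, stand far above the others.

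The other vessel lists held genes outside the 36. Of 17 other endothelial genes, led by the receptors Stab1 and Plxnd1, 15 had a negative log2 fold change in P815-IFNG light against dark, with a median of -0.73 and 1 lower at an unadjusted p under 0.05. Of 11 other mural genes, led by Notch3 and Tagln, 1 was lower at that p, and the median was -1.42. Of 15 genes for angiogenic ligands and the Notch pathway, led by Tgfb1 and Vegfa, 1 was lower, with a median of -0.31. No gene of these lists was called. Vegfa, the ligand of Kdr, was at 62.3, 81.5 and 197 CPM in P815-IFNG light and 67.3, 116 and 94.6 in P815-IFNG dark, with overlap. The means were 114 and 92.7 CPM, and the higher mean in light rested on the deep library. In P815-M tumors Vegfa was at 57.1, 52.2 and 61.3 CPM in light and 98.8, 80.7 and 81.5 in dark, with means of 56.9 and 87.0.

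Lists of blood cells and of the tumor line gave medians nearer 0 than the vessel classes. In P815-IFNG light against dark the macrophage list, led by Lyz2 and Cd163, had 0 of 11 genes lower at an unadjusted p under 0.05 and a median of -0.04, the T cell list, led by Cd2 and Lck, 0 of 8 and -0.47, the platelet list, led by Itga2b and Gp1ba, 1 of 5 and -0.22, and the mast cell list, led by Cpa3 and Gata2, 1 of 10 and -0.23. The mast cell label was only partly met, since Kit was at 317 CPM or more in every library but the receptor subunits Fcer1a and Ms4a2 were at 0 in 10 and 7 of the 12 libraries. The platelet gene Gp1bb was at 0 in all 12 libraries, and the part of platelets in the levels of Selp and Vwf, which platelets also hold, was not tested.

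The second comparison, light against dark in P815-M tumors, shows the same vessel genes under light without the cytokine cassette. The log2 fold change was negative for 24 members and positive for 11, Prox1 being at 0 in both groups, with a median of -0.36, or -0.27 with groups at 0 set to their bound, against 0.01 over all genes. The class medians were -0.53 for identity, -0.31 for tip and sprouting, 0.23 for adhesion and -0.84 for mural genes. DESeq2 called 0 members, where it called 1 of 18804 genes. No member was called by edgeR's quasi-likelihood test (Benjamini-Hochberg), beside 0.0% of all genes. At an unadjusted p under 0.05, 1 member was lower (Aplnr), where 0.681% of all genes were, and 1 higher (Tek), where 2.03% were.

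Tek had a log2 fold change of 1.52 (SE 0.54), Icam1 of 0.24 (SE 0.41) and Rgs5 of -2.11 (SE 1.36), each with an adjusted p of 1 by edgeR's quasi-likelihood test (Benjamini-Hochberg). Aplnr had a fitted log2 fold change of -7.26 (SE 2.45, adjusted p = 1 by the same test), but its light libraries were all at 0, so that value depends on the prior count. Aplnr had 13 counts in P815-M dark, which were 4, 9 and 0 by tumor. Pooled over the group, its dark level was 3.92-fold a floor of 3 counts over the light group. That ratio takes the dark counts as exact and leaves out the spread between tumors, with P815-M dark 3 at 0 like the light libraries. Cdh5 was at -1.76 (SE 1.31), Kdr at -1.45 (SE 1.06) and Pecam1 at -0.76 (SE 0.42) on the log2 scale. Every light library lay under every dark library for 1 member, Nos3, against 8.06% of all genes, and above for 3, Icam1, Ramp2 and Tek, against 10.1%. P815-M dark 3 was at 0 for 14 of the 36 members, P815-M light 1 for 10 and P815-M light 2 for 9. When only the 10 libraries were fitted, 0.927% of all genes were called by edgeR in this comparison, and after ComBat-seq 1.38%, with 0 members among them in both.

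In P815-M light against dark the macrophage list had a median of 0.84 on the log2 scale, positive in 11 of 11 genes with 2 higher at an unadjusted p under 0.05, and summed to between 1859 and 2201 CPM in light and 1149 and 1257 in dark. Lyve1, which macrophages can also express, was at 44.6, 45.5 and 36.2 CPM in P815-M light against 23.4, 28.1 and 41.2 in P815-M dark, with overlap, and the part of macrophages in its level was not tested. The sum of Pecam1, Cdh5, Kdr and Tie1 was 25.4, 25.4 and 46.1 CPM in P815-M light against 69.1, 89.1 and 17.7 in P815-M dark. The skeletal muscle sums were 99.1, 145 and 289 CPM against 93.7, 475 and 103. The P815-M dark tumor with the fewest vessel reads also had the lowest adipocyte sum, 0.823 CPM.

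Whether the effect of light differed between P815-IFNG and P815-M was tested directly. It was negative, a lower light effect in P815-IFNG, for 24 of 36 members with a median of -0.60, against -0.01 over all genes. DESeq2 called 0 members, where it called 1 gene higher and 3 lower of 18804. By edgeR's quasi-likelihood test (Benjamini-Hochberg) 0 members were called, beside 0.0% of all genes. At an unadjusted p under 0.05 there was 1 member, Tie1, where 1.3% of all genes were lower. Tie1 had a difference of -4.22 (SE 1.69), Dll4 of -2.74 (SE 2.00), Sele of -1.88 (SE 2.05) and Rgs5 of -1.29 (SE 1.81) on the log2 scale, each with an adjusted p of 1.00 by the same test. The difference for Rgs5 was 0.96 without P815-M light 3. The light effects of the lines are therefore not shown to differ for any member.

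Light against dark averaged over both lines used the same libraries as the comparisons within each line. The log2 fold change was negative for 30 members, with a median of -0.75. DESeq2 called 0 members, where it called 3 genes higher and 3 lower of 18804. By edgeR's quasi-likelihood test (Benjamini-Hochberg) 0 members were called, beside 0.0% of all genes. At an unadjusted p under 0.05, 9 members were lower, against 1.57% of all genes, and 1 member was higher (Tek), against 1.97%. Aplnr was at -5.47 (SE 1.39), Rgs5 at -2.76 (SE 0.91), Kdr at -2.17 (SE 0.74) and Sele at -1.43 (SE 1.03) on the log2 scale, each with an adjusted p of 1.00 by that test. The value of Aplnr includes the P815-M light group at 0 and so depends on the prior count. Members were called lower by edgeR in other fits of this comparison. With only the 10 libraries 1 was, Rgs5 (-3.55, adjusted p = 0.0414), beside 0.454% of all genes. With the depth class as a batch term 2 were, Rgs5 (-2.68, adjusted p = 0.0325) and Aplnr (adjusted p = 0.0278), beside 0.792%. After ComBat-seq 5 were, Rgs5, Cdh5, Plvap, Aplnr and Kdr, beside 1.54%.

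The lines were then compared under each light condition. In light, P815-IFNG against P815-M, the log2 fold change was positive for 20 members and negative for 16, with a median of 0.05 against 0.15 over all genes, and 0 members were called, beside 0.016% of all genes. At an unadjusted p under 0.05, 1 member was higher, Egfl7, where 5.04% of all genes were. Egfl7 was at 1.25 (SE 0.28, adjusted p = 0.629), Angpt2 at -1.06 (SE 0.72, adjusted p = 0.638), Icam2 at 0.82 (SE 0.64, adjusted p = 0.658) and Cspg4 at -1.07 (SE 0.72, adjusted p = 0.635) by edgeR's quasi-likelihood test (Benjamini-Hochberg). DESeq2 called 1 member, Egfl7 (log2 fold change 1.14, adjusted p = 0.0218), beside 0.218% of all genes. Egfl7 was also called by edgeR with the depth class as a batch term (1.19, adjusted p = 0.0222), beside 0.436% of all genes, and after ComBat-seq (1.19, adjusted p = 0.0069), beside 1.4%.

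In dark, the log2 fold change was positive, higher in P815-IFNG, for 28 members and negative for 8, with a median of 0.76 against 0.33 over all genes. DESeq2 called 0 members, where it called 26 genes higher and 12 lower of 18804. By edgeR, again 0 members were called, beside 0.0106% of all genes. At an unadjusted p under 0.05, Ramp2 and Egfl7 were higher, 2 members, where 5.34% of all genes were. Ramp2 was at 2.32 (SE 0.65), Egfl7 at 0.73 (SE 0.28), Apln at 0.92 (SE 0.69) and Cspg4 at -1.17 (SE 0.72), each with an adjusted p of 0.604, and Vcam1 at 1.03 (SE 0.89, adjusted p = 0.616), by edgeR's quasi-likelihood test (Benjamini-Hochberg). Ramp2 was called by edgeR when only the 10 libraries were fitted (2.68, adjusted p = 0.0138), beside 2.19% of all genes, with the depth class as a batch term (2.56, adjusted p = 0.0162), beside 1.54%, and after ComBat-seq (2.41, adjusted p = 0.0028), beside 3.05%. In the same comparison 4 of 6 adipocyte genes and 4 of 8 fibroblast genes were higher in P815-IFNG dark at an unadjusted p under 0.05, and their part in the Ramp2 level was not tested.

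Members differed in level between the deep pair and the other libraries. The log2 ratio of the other 2 libraries of a P815-IFNG group to its deep library, on CPM plus 0.5, had a median of 1.02 over the members, with 18 of 36 over 1, against -0.06 over all genes, with 26.3% over 1. Among all genes it was 0.97 where at least 100 exon bases overlapped exons of the opposite strand and -0.32 where none did. Of the members, Nos3 had 1334 such bases, Sox17 804, Selp 624, Icam1 511, Dll4 214, Prox1 133 and Egfl7 122. Nos3 had ratios of 3.44 in light and 2.96 in dark, and Selp of 2.28 and 3.60. Eng, with 61 such bases, had 2.82 and 2.72, and Cspg4, with none, 3.09 and 2.16. Icam2 ran the other way, at -1.15 and -1.29. Reads of an opposite gene may be among the counts of Nos3, Sox17, Selp, Icam1, Dll4, Prox1 and Egfl7. As Eng and Cspg4 show, the difference between the 2 kinds of library was not limited to members with a long overlap, so a member's level in the 10 libraries and its level in the deep pair may not measure the same reads. Since a P815-IFNG group held a deep library and no P815-M group did, depth class and line overlap in the comparisons of lines.

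**Figure D5:**
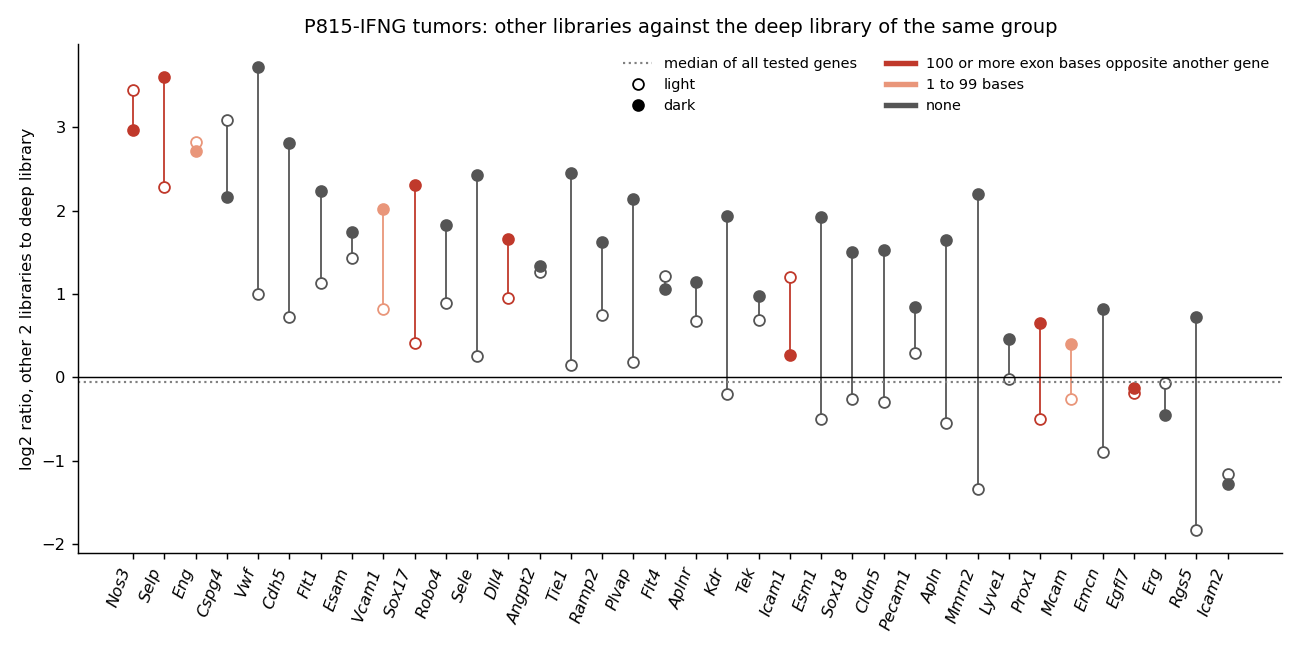
Log2 ratio of the mean CPM of the other 2 libraries to the deep library in P815-IFNG light (open points) and dark (filled points) for each member, coloured by the exon bases that overlap the opposite strand, with a dotted line at the median of all tested genes. Nos3, Cspg4, Eng and Selp lie above 2 in both groups, and Icam2 lies below -1 in both.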

How the data were processed

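RNA was taken from tumors of DBA/2 mice bearing 1 P815-IFNG or P815-M tumor, 3 mice per group in light or dark, and prepared with a strand-keeping mRNA kit, per the labels. The deposited counts are raw. The authors mapped reads with fastp and STAR 2.7.9a to mm10, to which the knock-in sequences had been added, and counted them with HTSeq 0.13.5 at its default settings. The strand setting used for each library is not given in the sources used here, and the mt-Nd6 shares differ between the deep pair and the other 10 libraries. The files precede their removal of mitochondrial genes and their ComBat-seq adjustment. The illumination time is that of the labels. Of the 32288 rows per library, 38 symbols were repeated. Which annotation release they used is not given in the sources used here.

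After 13 mitochondrial rows and all genes whose counts summed to less than 10 were dropped, 18804 genes were tested. Counts of all 12 libraries were fitted with R 4.3.3 and edgeR 4.0.16 (TMM, 1 mean per group, quasi-likelihood test, Benjamini-Hochberg adjustment over all genes), and a gene was called where its adjusted p was 0.05 or lower and its log2 fold change 1 or more in size. The SE given with an edgeR fold change is its size divided by the square root of the test's F, not an SE estimated by the model. Replicates were separate mice. The code was tested on simulated data. Alternatives were DESeq2 1.42.0, its size factors in edgeR, no filter, filterByExpr, mitochondrial genes retained, a fit of the compared libraries alone, a replicate block, depth class as a batch term, ComBat-seq of sva 3.50.0 with the deep pair as a batch, only the 10 libraries of lower depth, no minimum on the fold change, and leaving out each library. Counts at an unadjusted p were added after seeing the data. The ratio to the deep libraries used a pseudocount of 0.5 CPM.

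Exon lengths and overlaps came from the GRCm38 annotation, GENCODE M21, and promoters from RefSeq GRCm38.p6, both by symbol. Every member was named with its level. Fold changes were given for members called and for the member with the smallest unadjusted p in each of the 4 classes of each comparison, and Pecam1, Cdh5, Kdr, Angpt2, Icam1, Vcam1, Rgs5 and Cspg4 were given in every library, and the 2 highest genes of each other list by name. Other fold changes, Kit, Fcer1a, Ms4a2, Gp1bb and mt-Nd6 were chosen after their values were seen. The members and the lists were chosen with earlier results of these data known. Python 3.11.15 with numpy 2.4.6, pandas 2.3.3 and scipy 1.17.1 served for tables, and matplotlib 3.10.9 for figures. Libraries with totals over 10000000 counts formed the deep pair.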

Additional observations from a re-analysis of the deposited data

How the results depend on the processing

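Of 315 values for counts of members and class medians under 11 other settings, 295 were held unchanged, as were 363 of 384 when a library was left out. A class median was held unchanged if it moved by less than the spread of the replicates. A count of members was if it was equal or close in ratio, as 8 in place of 11. With a library left out, no gene at all was called in the comparisons of light or in their difference, and few between the lines. An unchanged number of members called there is no sign of stability. The 384 include fits without a library that lay outside the comparison, where a value could move little. The cause of the exceptions below was not tested. The number of members called moved from 0 to 4 with ComBat-seq for light against dark in P815-IFNG tumors, to 1 with DESeq2, the batch term and ComBat-seq for the lines in light, to 1 with the 10 libraries, the batch term and ComBat-seq for the lines in dark, and to 1, 2 and 5 with the 10 libraries, the batch term and ComBat-seq for light averaged over both lines. With filterByExpr, the members lower at an unadjusted p under 0.05 numbered 7 in P815-IFNG tumors and 5 averaged over both lines. Of all 13415 genes tested in that fit, 127 and 208 were lower at that p. Class medians of the log2 fold change moved as follows. In P815-IFNG light against dark, tip and sprouting genes were at -0.94 with filterByExpr and adhesion genes at 0.034 with ComBat-seq. Between the lines in light, tip and sprouting genes were at -0.39 with filterByExpr and -1.03 with only the libraries compared, and mural genes at -0.53 with the 10 libraries. In the test of whether the light effect differed by line, adhesion genes were at -0.41 with filterByExpr and -0.21 with ComBat-seq.

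With a library left out, the count of members lower in P815-IFNG light ranged from 1, beside 170 of 18684 genes, to 14, beside 547 of 18264. The tip and sprouting median ranged from -2.94 to -1.13 and the adhesion median from -1.54 to 0.049. In P815-M light against dark the mural median ranged from -1.54 to -0.52. Between the lines, the adhesion median in light ranged from -1.32 to 0.37, the mural median in light from -0.52 to 1.08, and the tip and sprouting median in dark from 0.41 to 1.99. In the test of whether the light effect differed by line, the ranges were -1.29 to 0.11 for identity, -0.97 to 0.19 for tip and sprouting, -1.78 to 0.15 for adhesion and -0.36 to 0.76 for mural genes. The log2 fold change of Icam1 in P815-IFNG tumors ranged from -0.21 to 0.89, turning negative without P815-IFNG light 1, and the difference of Rgs5 between the lines from -2.74 to 0.96, turning positive without P815-M light 3. Where 2 libraries remained in a group the fit pooled the spread of all groups.

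With the replicate number as a block, 5 members averaged over both lines were lower at an unadjusted p under 0.05 in place of 9. In P815-IFNG tumors 8 were, in place of 11. At that p, 216 and 163 of all 18804 genes were lower in these comparisons. In every comparison 0 members were called. Over all genes, 4 were called higher in P815-IFNG in light, and 6 higher and 1 lower in dark. Between libraries of the same number, the mean correlation of deviations was 0.08, 0.16 and 0.18 for replicates 1, 2 and 3. The lowest values were -0.07, 0.004 and -0.18. These means did not show a pairing by number. Both deep libraries were replicate 3, though, and their own correlation is not given here.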
